A study of Mus musculus with 12 samples.

Results

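hCD4- pro-B cells were compared with hCD4+ pre-pro-B cells of mouse bone marrow, 2 expression arrays against 2, out of 12 arrays in 6 groups. The 4 arrays were taken by their labels, and no measured value entered the choice. All cells came from female C57BL/6 mice aged 16 weeks carrying the Cebpa-Enh/prom-hCD4 transgene, in which regulatory sequence of Cebpa drives human CD4 (hCD4) as a reporter. The control cells therefore carry the transgene too. Cells were sorted by FACS into stages and, within a stage, by the reporter, and the RNA, amplified and dyed with Cy3, was hybridised to 1-colour arrays. The series title speaks of 2 such mice. No label ties an array to an animal, so the spread behind a p-value may be technical. That spread is estimated over all 12 arrays, 2 in each group, and can come from groups other than those compared. Precision is limited by the number of arrays. The surface markers behind the stage names are not given in the sources used here. Between these groups the stage and the reporter status change together and cannot be told apart. The 4 arrays shared 1 slide, which no other pro-B and pre-pro-B groups of the series did, with hCD4+ pre-pro-B cells at positions 1 and 2 and hCD4- pro-B cells at positions 3 and 4. Position and group cannot be told apart either.

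B cells form in the marrow from progenitors that pass through pre-pro-B, pro-B and pre-B stages. The transcription factors Tcf3 (E2A), Ebf1 and Pax5 act in turn to open the B cell program and to close that of other lineages. Pro-B cells assemble the antibody heavy chain gene with the recombinase Rag1 and Rag2 and pair the new chain with a surrogate light chain made of Igll1 and Vpreb1. C/EBPα, the product of Cebpa, drives the opposite path, to myeloid cells by way of the granulocyte-monocyte progenitor (GMP).

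A level is the log2 intensity of a gene's probe relative to the 75th percentile of its array, so that 0 is the brightness of that percentile. A change is the hCD4- pro-B mean minus the hCD4+ pre-pro-B mean on that scale, with its standard error (SE) from limma. A gene rose or fell where limma's adjusted p was under 0.05. The 75th percentile had an intensity of 598 to 693 on the 4 arrays, replicates correlated at 0.991 in both groups, and their SD had a median over genes of 0.113 for hCD4+ pre-pro-B and 0.0977 for hCD4- pro-B cells. The means of the 2 groups correlated at 0.900 across genes. Of 18556 genes tested, 8811 changed (47.5%), of which 5302 rose (28.6% of those tested) and 3509 fell (18.9%). Rises made up 60.2% of the changed genes, and 49.2% under cyclic loess normalization. The median change of all genes was 0.13, and it was 0.03 after array-median scaling and -0.02 after cyclic loess. The 2 groups did not overlap for 77.7% of the genes, the pro-B arrays being the higher for 46.5% and the lower for 31.2%. Large changes lay on both sides: 319 genes rose and 347 fell by at least 4 on the log2 scale, and 26 rose and 5 fell by at least 8. Where neither array of one group was well above background, the difference is given as "at least N-fold", against the level of the dimmest probe still above background on those arrays. Such a bound also needed both arrays of the other group above background. It was given for 403 of the rises and 304 of the falls. The 6235 tested genes named by a clone or database number are left out of these 2 counts. Where 1 array of a group was above background and the other was not, the change is printed but rests in part on a reading below background. Among the genes named this holds for Igll1, Lef1, Pou2af1, Erg, Rag2, Cish, S1pr1, S100a8, Prss34 and Mcpt8 in pre-pro-B cells and for Cd209a, Cx3cr1, Cybb and Lag3 in pro-B cells.

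**Figure D1:**
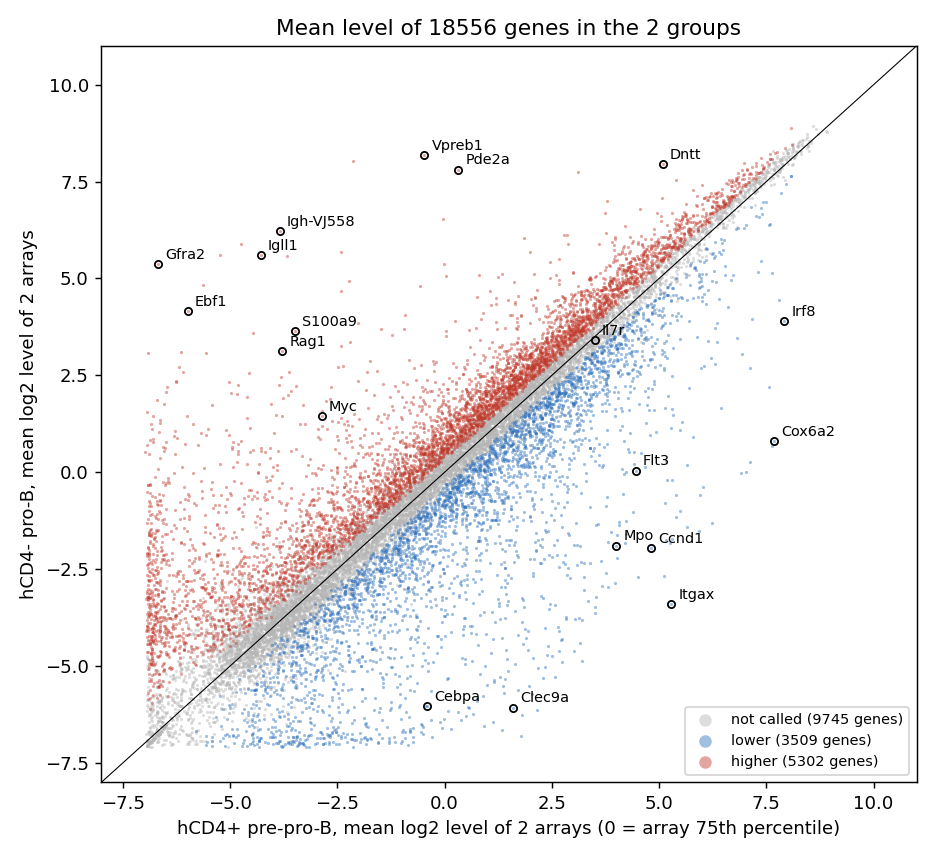
Mean log2 level of each of the 18556 genes tested in hCD4+ pre-pro-B cells (horizontal axis) and hCD4- pro-B cells (vertical axis), 2 arrays each, with 0 at the array's 75th percentile. Red points are the 5302 genes that rose, blue the 3509 that fell and grey those without a call, and the diagonal marks equal levels. Gfra2, Ebf1 and Igll1 lie far above the diagonal, Itgax, Clec9a and Cebpa far below it, and Il7r on it.

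Most B lineage transcription factors were higher in the hCD4- pro-B cells, and Ebf1 and Pax5 were above background on neither hCD4+ pre-pro-B array. Of 20 B lineage transcription factors tested, 13 rose, 3 fell and 4 were not called, with a median change of 1.85 against 0.13 for all genes. The share that rose was above the 28.6% of all genes. Ebf1, measured by a probe at chr11:44818438-44818497 (mm9), lay at -6.80 and -5.18 on the hCD4+ pre-pro-B arrays and at 4.18 and 4.11 on the hCD4- pro-B arrays. Neither pre-pro-B array measured it above background, and it was at least 449-fold higher in pro-B cells (adjusted p = 6.33e-07). Pax5, which fixes B cell identity, stood at -6.88 and -6.76 against -0.66 and -0.55, at least 16.7-fold higher (adjusted p = 1.31e-06). Its second probe changed by 3.80. Lef1, a factor of the Wnt pathway active in pro-B cells, rose by 10.85 (SE 0.72) and the B cell coactivator gene Pou2af1 by 10.62 (SE 0.62). Each of these was above background on 1 of the 2 pre-pro-B arrays, the second replicate, where Lef1 lay at -3.98 against -6.50 on the first. With levels set to each array's detection floor, the change of Lef1 was 9.99.

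Other factors were above background on both hCD4+ pre-pro-B arrays already. Tcf3 went from 1.51 and 1.62 to 4.06 and 4.07, a change of 2.50 (SE 0.19, adjusted p = 1.68e-05). Foxo1, which supports Rag gene expression, went from 2.40 on both arrays to 4.32 and 4.27. For both genes the replicates nearly coincided and the groups stood clear of each other. Irf4 rose by 3.30, Bach2 by 2.64, the E protein inhibitor gene Id3 by 2.11 and Myb by 1.81. Erg, above background on 1 pre-pro-B array, rose by 7.03 (SE 0.51). The 3 that fell were Tcf4 (-2.40, SE 0.22), which encodes E2-2, a factor also known for plasmacytoid dendritic cells, Spib (-1.60, SE 0.19), known there as well, and Bcl11a (-1.57, SE 0.10). The second probe of Bcl11a changed by 0.41, and with the mean of its probes the call ended (-0.58, adjusted p = 0.0643). Ikzf1 (-0.32, adjusted p = 0.0698) was without a call, and passed the test in 8 of its alternatives.

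The parts of the pre-B cell receptor were among the steepest rises. Of 16 tested genes of the pre-B receptor and CD79 complex, 11 rose and 2 fell, with a median change of 2.64. Igll1, the lambda5 chain of the surrogate light chain, lay at -4.77 and -3.80 in pre-pro-B cells and at 5.48 and 5.71 in pro-B cells. Vpreb1, its partner, lay at -0.77 and -0.18 against 8.22 and 8.14, a rise of 8.65 (SE 0.22, adjusted p = 1.06e-07). Vpreb2 rose by 9.25 (SE 0.37) and Vpreb3 by 10.16 (SE 0.64). The pro-B replicates of these 4 genes lay close together, while those of pre-pro-B cells stood further apart, with the second the higher for each. Vpreb1 and Vpreb2 are near-identical copies that array probes may not tell apart.

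Cd79a, a signalling chain of the receptor, rose by 8.11 (SE 0.29, adjusted p = 2.91e-07), from -2.76 and -2.08 to 5.65 and 5.73. Its partner Cd79b was already well expressed, at 3.70 and 3.87, and rose by 3.22 to 7.04 and 6.99. Cd81, which encodes a tetraspanin of the B cell surface, rose by 7.16 (SE 0.33). Further along the signalling chain the changes were smaller: the adaptor genes Bank1 and Blnk rose by 2.05 and 1.41 and the kinase gene Btk by 1.25. The phosphatase gene Ptpn6 (-2.14, SE 0.13) and the kinase gene Lyn (-1.22, SE 0.13) fell.

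**Figure D2:**
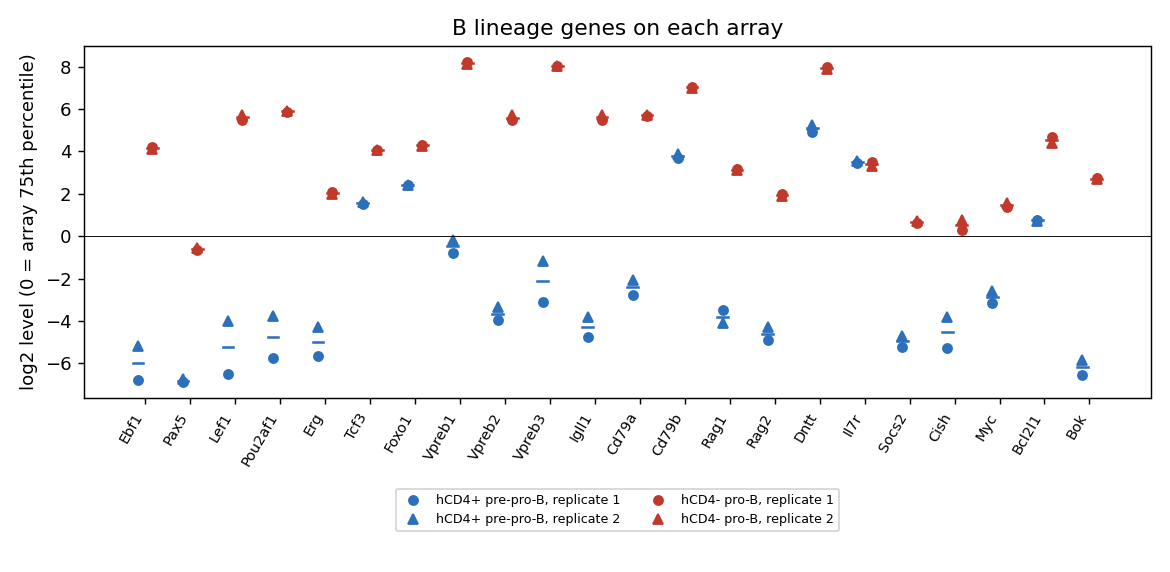
Log2 level of 22 B lineage genes on each array, with 0 at the array's 75th percentile. Blue marks hCD4+ pre-pro-B and red hCD4- pro-B arrays, circles replicate 1 and triangles replicate 2, and short lines the group means. The red marks lie far above the blue for Ebf1, Igll1 and Lef1, nearer for Tcf3, Foxo1 and Cd79b, and at the same height for Il7r.

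The promoters of 4 of these genes are shown, and each holds an E box, the kind of site that E2A proteins bind. Those of other genes that rose with them, such as Vpreb3, Cd81 and Cd79b, are not shown. Each is the stretch of 250 bases before the start in RefSeq's table (assembly GRCm38.p6), on the strand of the gene, with the letters CAGGTG, or their reverse complement, in capitals.
Cd79a, chr7:24897247-24897496, plus strand: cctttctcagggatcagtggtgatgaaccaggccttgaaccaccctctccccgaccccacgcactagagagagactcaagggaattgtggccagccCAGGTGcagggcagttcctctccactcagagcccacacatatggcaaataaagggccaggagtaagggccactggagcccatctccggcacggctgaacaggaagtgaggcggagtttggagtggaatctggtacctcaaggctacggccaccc
Igll1, chr16:16863986-16864235, minus strand: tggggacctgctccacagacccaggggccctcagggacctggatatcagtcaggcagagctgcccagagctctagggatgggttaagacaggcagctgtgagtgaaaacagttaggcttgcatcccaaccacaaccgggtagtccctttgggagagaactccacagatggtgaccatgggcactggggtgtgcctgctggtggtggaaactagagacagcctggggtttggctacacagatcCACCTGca
Vpreb1, chr16:16869256-16869505, minus strand: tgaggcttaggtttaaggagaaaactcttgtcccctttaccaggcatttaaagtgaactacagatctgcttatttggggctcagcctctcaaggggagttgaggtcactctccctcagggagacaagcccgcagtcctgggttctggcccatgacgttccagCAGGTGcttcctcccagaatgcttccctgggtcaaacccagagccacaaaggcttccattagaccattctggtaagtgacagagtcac
Vpreb2, chr16:17980315-17980564, plus strand: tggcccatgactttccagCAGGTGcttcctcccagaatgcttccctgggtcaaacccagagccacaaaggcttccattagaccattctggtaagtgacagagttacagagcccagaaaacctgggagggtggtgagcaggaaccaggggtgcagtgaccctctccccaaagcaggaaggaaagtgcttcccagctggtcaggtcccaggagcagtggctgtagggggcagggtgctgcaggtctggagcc
The capitals begin 154 bases before the start in Cd79a, 8 in Igll1, 88 in Vpreb1 and 232 in Vpreb2. Aligned on these letters, the windows of Vpreb1 and Vpreb2 share 106 bases, of which 104 are identical (98.1%). The letters are common. They stood in 17.1% of the 22862 promoters in the table and in 15.4% of those of genes tested. Genes that rose by at least 4 held them in 16.3% of 123 promoters and genes that fell by at least 4 in 25.5% of 192. The EBF letters CCCNNGGGA, searched on both strands, stood in 8.94% and 4.69% of the same promoters and in 5.51% of all. None of the 4 promoters shown holds exactly these EBF letters. Sites that differ from the letters were not searched, so a missing match is not a missing site. The C/EBP letters TTGCNNAA stood in 17.1% and 9.9%, against 9.6% of all.

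The genes of V(D)J recombination rose with the receptor they serve. Of 15 tested, 10 rose and 1 fell, with a median of 1.51. Rag1 went from -3.51 and -4.08 to 3.15 and 3.10, a rise of 6.92 (SE 0.35, adjusted p = 1.48e-06). Rag2 went from -4.92 and -4.31 to 1.99 and 1.90, a rise of 6.56 (SE 0.31), and its second probe rose by 4.33. Both pre-pro-B arrays measured Rag1 above background and 1 of them Rag2. Dntt, the enzyme that adds untemplated bases at heavy chain joins, was already at 4.91 and 5.25 and rose by 2.86 to 7.99 and 7.91. Among end-joining genes Xrcc5 (Ku80) rose by 4.43, Poll by 4.42, Lig4 by 3.64, Xrcc6 (Ku70) by 2.04 and Polm by 1.51. Dclre1c, which encodes the hairpin-opening nuclease Artemis, fell by 1.46 (SE 0.18).

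Pro-B cell surface and marker genes had 13 of 17 tested members higher and 2 lower, with a median of 3.27, or 2.42 with members at their lower bound where they were not measured in one group. Cd24a, the heat-stable antigen of early B cells, rose by 3.27 (SE 0.11), and Bst1 (BP-3) by 4.37 (SE 0.18). Enpep, the BP-1 antigen, was at least 3.82-fold higher. Il2ra, the CD25 chain that marks later stages, rose by 3.48 and Myl4 by 4.28. Kit, the stem cell factor receptor still present on pro-B cells, went from -1.46 and -1.09 to 0.40 and 0.53, a rise of 1.74 (SE 0.18). Spn, which encodes CD43, fell by 0.83 (SE 0.10) and Ptprc, the CD45 gene, by 1.79 (SE 0.11). Cplx2 was without a call at its brightest probe (0.48), while its other 4 probes changed by 0.27 to 10.96. Gfra2, a receptor subunit for ligands of the GDNF family probed at chr14:71379586-71379645 (mm9), had the highest bound of all named genes. It lay at -6.88 and -6.49 in pre-pro-B and at 5.42 and 5.31 in pro-B cells, at least 1043-fold higher (adjusted p = 6.02e-08), and its relative Gfra1 was at least 24.9-fold higher.

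Genes of later B cells were divided, with 9 of 18 tested higher and 5 lower, beside 28.6% and 18.9% of all genes. Ms4a1 (CD20) was at least 6.79-fold and the follicle-homing receptor gene Cxcr5 at least 8.28-fold higher. Cd2 rose by 4.51 (SE 0.23). Ly6d, a marker of B-biased lymphoid progenitors, went the other way, from 7.78 and 7.82 to 4.62 and 4.28, and the inhibitory receptor gene Btla fell by 3.87 (SE 0.15).

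Interleukin 7, through STAT5, sustains pro-B cells. Its receptor gene Il7r did not differ measurably, with 3.43 and 3.56 in pre-pro-B and 3.49 and 3.32 in pro-B cells (change -0.09, SE 0.14, adjusted p = 0.629). Several genes that STAT5 is known to induce did. Socs2, a feedback inhibitor, was not above background in pre-pro-B cells (-5.22 and -4.69) and lay at 0.60 and 0.71 in pro-B cells, at least 39.9-fold higher. Cish, another feedback inhibitor, rose by 5.05 (SE 0.58) and Pim1 by 1.65, while Mycn was at least 4.08-fold higher. Myc, the growth factor-induced transcription factor, rose by 4.31 (SE 0.37, adjusted p = 3.39e-05), from -3.17 and -2.57 to 1.35 and 1.54. Within the whole list 10 of 20 rose and 5 fell, beside 28.6% and 18.9% of all genes. Bcl2, also a member, had the largest fall of the list (-2.01), while the member Bcl2l1 rose by 3.78. Stat5b itself fell by 0.56 (SE 0.11). The falls numbered only 2 or 3 when any 1 of the 4 arrays was left out.

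Survival genes of the Bcl2 family moved in opposite directions. Bcl2l1, which encodes Bcl-xL, rose by 3.78 (SE 0.15), from 0.78 and 0.72 to 4.65 and 4.41, while Bcl2 fell by 2.01 (SE 0.26), from 1.80 and 2.06 to 0.06 and -0.23. The groups did not overlap for either. Of the proapoptotic members Bok was at least 166-fold higher and Bmf rose by 3.39 (SE 0.35). In the family as a whole 4 of 14 rose, near the 28.6% of all genes, and 5 fell, against 18.9% of all genes.

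So did the D cyclins. Ccnd1 fell by 6.78 (SE 0.51, adjusted p = 1.44e-05), from 4.85 and 4.78 to -1.30 and -2.64, whereas Ccnd3, the D cyclin known to serve early B cells, rose by 1.49 (SE 0.16) and Ccnd2 by 1.46 (SE 0.25). The CDK inhibitor gene Cdkn1a rose by 3.62 (SE 0.27) and the kinase gene Cdk6 by 1.94. By limma's test 28 of 31 genes of S phase rose and 0 fell, with a median of 1.16, and 24 of 29 genes of G2/M phase rose and 0 fell, with a median of 1.05. At an unadjusted p under 0.05 the falls numbered 0 in both lists too. Under cyclic loess, 28 S phase and 20 G2/M phase genes rose and 0 fell. Rrm2, a subunit of ribonucleotide reductase, rose by 1.62 (SE 0.12), the replication clamp gene Pcna by 1.27 (SE 0.17), Uhrf1 by 2.02, Mki67 by 1.05 and Ccnb1 by 1.44. The changes ran from -0.34 to 2.02 in the S phase list and from 0.25 to 1.54 in the G2/M phase list. Tested against a change of 1 instead of 0, 6 S phase and 1 G2/M phase genes passed.

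The largest falls were in genes of dendritic cells and monocytes, which were bright in the hCD4+ pre-pro-B cells. Of 25 plasmacytoid dendritic cell genes tested, 22 fell, 1 rose and 2 were not called, with a median of -4.88. Of 11 classical dendritic cell genes 7 fell and 1 rose (median -1.80), and of 23 monocyte and macrophage genes 17 fell and 2 rose (median -3.30). Itgax, the CD11c integrin, probed at chr7:135294052-135294111 (mm9), lay at 5.27 and 5.30 in pre-pro-B cells and at -2.83 and -4.00 in pro-B cells, a change of -8.69 (SE 0.68, adjusted p = 1.91e-05). Clec10a, a lectin of dendritic cells and macrophages, fell by 7.80 (SE 0.70), from 5.14 and 5.09 to -2.20 and -3.17. Clec9a, the dead-cell receptor of cross-presenting dendritic cells, was at least 82.2-fold lower, with 1.47 and 1.73 in pre-pro-B cells and no array above background in pro-B cells. The pre-pro-B replicates lay close together for these 3 genes, and of the pro-B arrays replicate 1 was the brighter in each. Cd209a (DC-SIGN) fell by 7.77 (SE 0.82), and its second probe changed by -3.83.

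Several genes by which plasmacytoid dendritic cells are known moved in step. Cox6a2, a respiratory subunit abundant in these cells, fell by 6.89 (SE 0.26), from 7.67 and 7.71 to 1.27 and 0.33. Runx2, which governs their exit from marrow, was at least 69.2-fold lower, and Ccr9, a homing receptor, fell by 6.90 (SE 0.51). Bst2, the antigen used to mark them in mice, went from 7.33 and 6.91 to 2.84 and 2.56. Irf7, which drives interferon production, fell by 3.53 (SE 0.34) and Lag3 by 7.03 (SE 0.73). Irf8, needed by dendritic cells and monocytes, fell by 4.03 (SE 0.12, adjusted p = 1.77e-07), from 7.91 and 7.93 to 3.95 and 3.82. Siglech was not called at its brightest probe (-0.48, adjusted p = 0.0648), but its other probes changed by -7.33 and -6.14, and it was called under 11 other settings. The 1 member that rose was Dntt, which B lineage cells share, and Tcf4, Spib and Ly6d also stand in lists of B lineage genes.

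These markers also describe the sorted cells. A panel of 6 plasmacytoid dendritic markers (Siglech, Bst2, Klk1, Lair1, Irf7 and Runx2) had a summed linear level, in multiples of the array's 75th percentile, of 262 to 307 on the pre-pro-B arrays and 86.9 to 89.1 on the pro-B arrays. All 6 were above background in pre-pro-B and 5 in pro-B cells, where Runx2 was not. The brightest probe of Siglech, which differed little, made up most of the pro-B sum. Without Siglech, a setting chosen after seeing the data, the sum of the other 5 was 150.0 to 194 on the pre-pro-B arrays and 6.56 to 8.10 on the pro-B arrays. The panel of 10 committed B lineage markers went from 111 to 116 up to 973 to 1009, with Ebf1 and Pax5 among those above background on no pre-pro-B array. The panel of pre-pro-B and early lymphoid markers was at a similar sum in both groups, 335 to 352 and 345 to 363, with 2 of 8 higher and 5 lower. Different markers led the 2 sums. The brightest was Ly6d (change -3.35) in pre-pro-B and Dntt (change 2.86) in pro-B cells, and Dntt also stands in the committed B lineage panel. In these sorted samples, fewer cells of a type and less RNA per cell cannot be told apart. The part of the dendritic markers in the other falls was not tested.

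**Figure D3:**
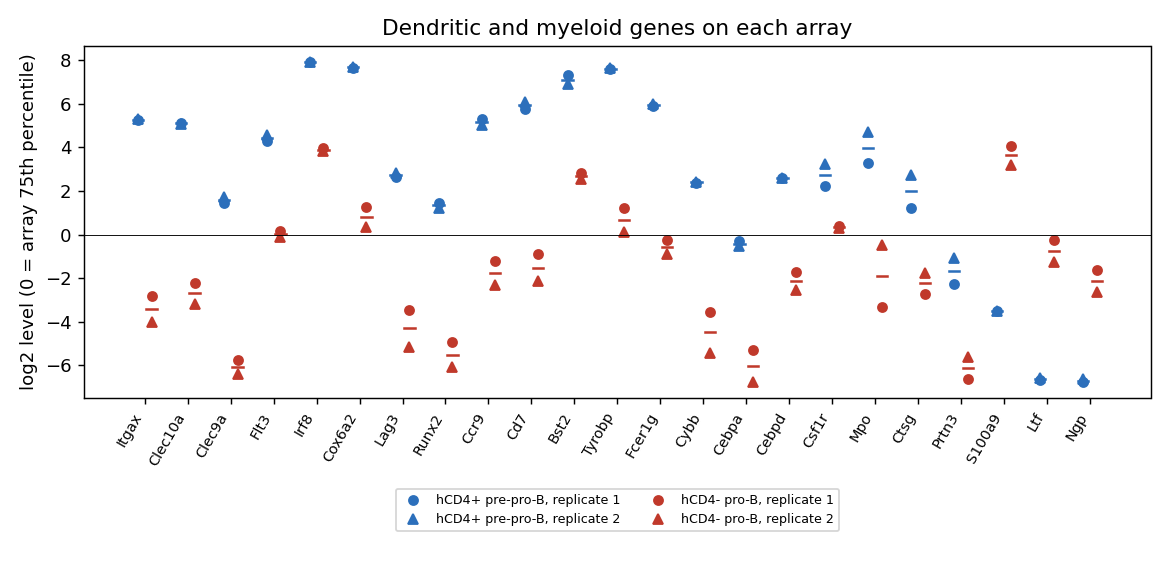
Log2 level of 23 dendritic and myeloid genes on each array, with 0 at the array's 75th percentile. Blue marks hCD4+ pre-pro-B and red hCD4- pro-B arrays, circles replicate 1 and triangles replicate 2, and short lines the group means. The red marks lie below the blue for every gene from Itgax to Prtn3 and above them for S100a9, Ltf and Ngp, and the replicates of Mpo stand far apart.

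Flt3, the cytokine receptor of lymphoid and dendritic progenitors, fell by 4.41 (SE 0.33, adjusted p = 1.49e-05), from 4.31 and 4.59 to 0.18 and -0.10. Its other probes changed by -4.19 and -0.68. Of the 16 early lymphoid progenitor genes 7 fell and 3 rose, with a median of -0.36, where 18.9% of all genes fell and 28.6% rose. Ly6a (Sca-1) fell by 3.06, while Gfi1, a repressor that acts in lymphoid and myeloid progenitors, rose by 4.19 (SE 0.19). Id2, an E protein inhibitor, was without a call (-0.37, adjusted p = 0.292). The stem and multipotent progenitor genes were divided, with 8 of 20 higher and 9 lower, beside 28.6% and 18.9% of all genes. Mn1 was at least 26.7-fold lower and Procr at least 4.73-fold lower.

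Class II antigen presentation went down as a group in the hCD4- pro-B cells: 11 of 12 tested genes fell and 1 rose, with a median of -3.30. Cd74, the invariant chain, fell by 4.15 (SE 0.53), from 5.34 and 5.23 to 1.63 and 0.63. H2-Aa fell by 3.93 and H2-Eb1 by 3.68, chains of the class II molecules themselves, and Ciita, their transactivator, by 1.98 (SE 0.19). H2-Ab1 fell by 1.17 only. The exception was H2-Ob, a modulator of peptide loading expressed in B cells, which rose by 3.05 (SE 0.23), from -0.99 and -0.36 to 2.23 and 2.53.

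Chemokine receptor and adhesion genes had 14 of 24 lower and 4 higher (median -2.20). The monocyte receptor gene Cx3cr1 fell by 7.27 (SE 0.30) and the integrin gene Itgb7 by 7.07 (SE 0.37). Ccr2, which brings monocytes out of the marrow, was at least 40.2-fold lower. In the other direction S1pr1, a receptor for egress into blood, rose by 6.00 (SE 0.71), from -4.48 and -4.72 to 1.59 and 1.21. Of the Toll-like receptor genes 7 of 13 fell and 1 rose, among them Tlr7 (-2.93, SE 0.17; other probe -4.51) and Tlr12 (-3.69, SE 0.13). Interferon response genes split without one direction, 9 of 25 higher and 13 lower, beside 28.6% and 18.9% of all genes. Mx1 (-4.37), Stat2 (-2.57) and Mx2 (-2.40) fell, while Rtp4 (6.11), Ddx58 (2.99), Oas1a (2.57) and Ifit3 (1.93) rose.

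Myeloid regulators fell with Cebpa, the gene whose control sequence drives the reporter. Cebpa, probed at chr7:35906517-35906576 (mm9), lay at -0.28 and -0.54 on the hCD4+ pre-pro-B arrays and at -5.32 and -6.77 on the hCD4- pro-B arrays, where it was not above background. It was at least 20.4-fold lower (adjusted p = 3.39e-05). The reporter by which the groups were sorted is driven by regulatory sequence of this gene. Yet among pre-pro-B cells the mean level of Cebpa was -0.41 with the reporter and -0.92 without it. Among pro-B cells the mean was -1.63 with the reporter and -6.04, below background, without it. The reporter-negative pre-pro-B and reporter-positive pro-B arrays lie on other slides. The part of reporter status in the fall of Cebpa was not tested. Of 20 myeloid transcription factors and receptors 15 fell and 1 rose, the median being -2.72. Cebpb fell by 3.19 and Cebpd by 4.75. The signalling adaptors Tyrobp and Fcer1g fell by 6.94 and 6.54, and Cybb, the oxidase subunit of phagocytes, by 6.89. Csf2rb, the shared chain of the GM-CSF and interleukin 3 receptors, fell by 4.08 (SE 0.14). Csf1r, the receptor of macrophage colony-stimulating factor, fell by 2.39 (SE 0.34, adjusted p = 5.72e-04), from 2.24 and 3.23 to 0.38 and 0.31, and its other probes changed by -3.41 and -0.42. Sfpi1, the PU.1 gene, was without a call (-0.58, adjusted p = 0.140).

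Among 17 neutrophil primary granule genes, made in progenitors, 7 fell and 5 rose, the rises being near the 28.6% of all genes. Mpo, the granule peroxidase, lay at 3.28 and 4.71 in pre-pro-B cells and at -3.33 and -0.47 in pro-B cells, a change of -5.89 (SE 1.26, adjusted p = 0.00510) that its second probe shared (-5.91). The groups did not overlap, but the replicates of each stood more than a log2 unit apart. Ctsg, a granule protease, fell by 4.21 (SE 0.83) and its relative Prtn3 was at least 8.62-fold lower. Elane, the neutrophil elastase gene, was without a call (-0.69, SE 0.26, adjusted p = 0.0612), and was called lower under 6 other settings. The falls numbered 4 without pre-pro-B replicate 2 and 4 without pro-B replicate 2. The sum of 7 myeloid progenitor markers went from 19.1 to 45.3 in pre-pro-B cells down to 2.52 to 3.17 in pro-B cells, where Cebpa, Prtn3 and Ms4a3 were not above background.

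PU.1 acts with C/EBPα on granule genes, and the promoters of Mpo and Prtn3 are shown because both fell and both hold the PU.1 letters GAGGAAGT, given in capitals (250 bases before the start, RefSeq, GRCm38.p6).
Mpo, chr11:87793534-87793783, plus strand: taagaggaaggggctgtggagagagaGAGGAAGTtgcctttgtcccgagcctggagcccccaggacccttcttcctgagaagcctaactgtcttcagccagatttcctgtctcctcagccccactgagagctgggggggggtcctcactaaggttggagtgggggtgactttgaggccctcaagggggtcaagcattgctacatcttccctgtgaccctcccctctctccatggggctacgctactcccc
Prtn3, chr10:79879417-79879666, plus strand: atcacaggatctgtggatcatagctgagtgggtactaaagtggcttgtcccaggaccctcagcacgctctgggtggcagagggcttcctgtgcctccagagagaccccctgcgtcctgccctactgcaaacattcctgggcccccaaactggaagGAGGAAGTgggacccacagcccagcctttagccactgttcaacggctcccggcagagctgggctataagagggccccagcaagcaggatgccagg
The capitals begin 224 bases before the start in Mpo and 95 in Prtn3. On either strand the letters stood in 2.45% of all promoters and 2.64% of those tested. They stood in 8.33% (16 of 192) of those of genes that fell by at least 4 and in 2.44% (3 of 123) of those that rose by as much. A match is a description and not a binding site.

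Late neutrophil genes went the other way: of 12 secondary granule and late genes tested, out of 20 listed, 11 rose and 0 fell by limma's test (0 also at an unadjusted p under 0.05), with a median of 3.76, or 3.21 with members at their lower bound. Only 4 of the 12 were above background on all 4 arrays. The list's median level in pre-pro-B cells was -5.66, under the detection floors of -4.78 and -4.54, so a fall could hardly be seen. S100a9, a calcium-binding protein abundant in neutrophils, lay at -3.49 and -3.50 in pre-pro-B cells and at 4.07 and 3.21 in pro-B cells (change 7.13, SE 1.44, adjusted p = 0.00377). Its partner S100a8 rose by 7.35 (SE 1.58). Ltf, the lactoferrin gene, was at least 15.2-fold and the granule gene Ngp at least 5.72-fold higher. Lcn2 rose by 3.48 (SE 0.41) and Camp by 2.94 (SE 0.41), with 5.15 at its second probe. For S100a9, S100a8, Ltf, Ngp, Lcn2 and Camp, replicate 1 of the pro-B cells was the brighter array. The summed level of these 6 markers was 0.324 to 0.325 in pre-pro-B and 14.7 to 26.7 in pro-B cells, and their part in the other rises was not tested.

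Other genes outside the B lineage rose in the same cells. Of 17 basophil, mast cell and eosinophil genes tested 9 rose and 0 fell by limma's test (0 also at an unadjusted p under 0.05), among them the basophil protease genes Prss34 (4.55, SE 0.53) and Mcpt8 (3.85, SE 0.30). The share that rose was above the 28.6% of all genes. The median change was 1.74, or 1.57 with members at their lower bound. Only 2 of the 17 were above background on all 4 arrays. The list's median level in pre-pro-B cells was -5.36, under the detection floors of -4.78 and -4.54, so a fall could hardly be seen. The basic protein gene Prg3 was at least 5.88-fold higher. Of 14 erythroid genes 10 rose and 1 fell. Car2, carbonic anhydrase 2, rose by 5.05 (SE 0.24), the globin chaperone gene Ahsp was at least 8.55-fold higher and Gata1, the master factor of red cells, rose by 2.60 (SE 0.52). Their levels stayed low, since the summed level of 5 erythroid markers was 0.142 to 0.665 in pre-pro-B and 0.589 to 0.608 in pro-B cells. Tfrc, the transferrin receptor, was the member that fell (-2.00, SE 0.44).

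Antibody transcripts were higher in the hCD4- pro-B cells. Igh-VJ558, a heavy chain variable family, went from -3.73 and -3.97 to 6.27 and 6.17, a change of 10.07 (SE 1.59, adjusted p = 0.00101), and its other 3 probes changed by 4.26 to 11.01. Computed from the authors' deposited table, its change was 4.15. Probes of a variable gene family can share signal among its members. Igj, the joining chain of secreted antibody, went from -3.36 and -3.55 to 2.43 and 2.02 (change 5.68, SE 0.82). The SE of Igh-VJ558 comes mostly from groups not compared, above all hCD4+ pro-B cells (SD 4.19). Of 22 listed immunoglobulin names, Igj not among them, 3 were found by that name on the array, and all 3 were called higher, but with levels set to each array's detection floor 1 of the 3, Igh-VJ558, kept its call. Plasma cell genes as a list did not follow: 4 of 13 rose, near the 28.6% of all genes, and 7 fell. Xbp1, a factor of secretory cells, fell by 2.11 (SE 0.14) and Slamf7 rose by 3.75 (SE 0.17). The falls of that list numbered 4 without pre-pro-B replicate 1 and 3 without pro-B replicate 2.

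T and natural killer cell genes showed no common direction. Of 16 T cell genes 6 rose and 7 fell: Cd8a, also carried by some dendritic cells, was at least 35.1-fold lower and Cd28 fell by 3.72, while the antigen receptor chain gene Cd3d was at least 2.28-fold and Tcf7 at least 3.70-fold higher. Of 10 natural killer cell genes 4 fell and 2 rose. Klrd1, which encodes CD94, fell by 6.29 (SE 0.32), from 3.18 and 3.32 to -2.91 and -3.17, and Klrb1c was at least 4.17-fold higher. The number that rose was 4 to 6 under 4 other settings. Of 11 megakaryocyte genes 1 rose and 2 fell, and of 18 glycolysis genes 9 rose and 4 fell (median 0.46). Beside the counts of these lists and of T and natural killer cell genes, 28.6% of all genes rose and 18.9% fell. Immediate early genes, which respond to handling, had 4 of 19 higher and 4 lower, beside 28.6% and 18.9% of all genes. Of 11 genes of the phagocyte oxidase and Fc receptors 8 fell and 0 rose (limma; 0 also at an unadjusted p under 0.05).

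**Figure D4:**
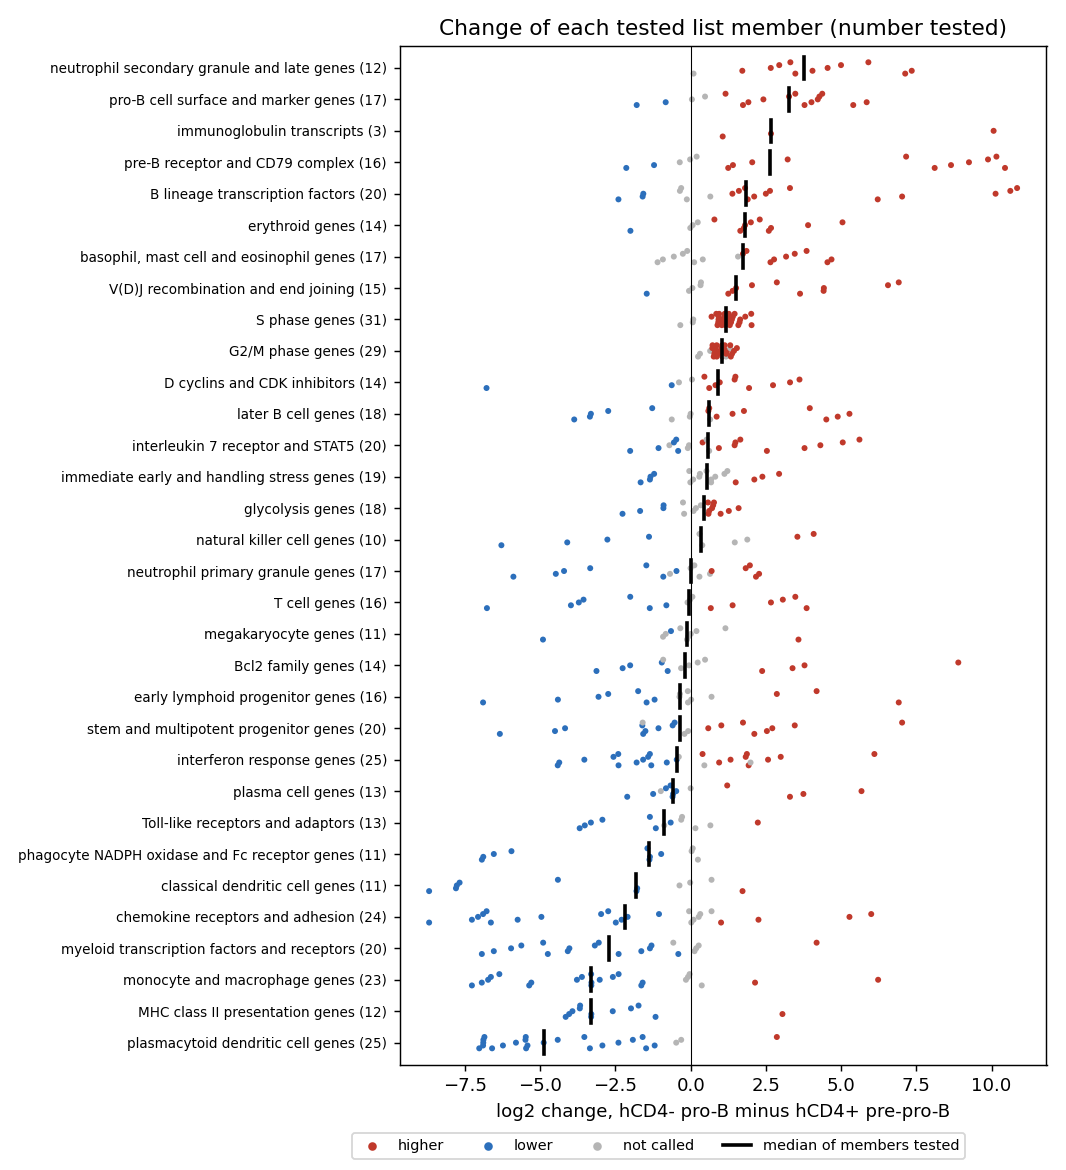
Log2 change of each tested member of 32 gene lists, hCD4- pro-B minus hCD4+ pre-pro-B, with the number tested in parentheses. Red points rose, blue points fell and grey points had no call, members measured in only one group are drawn at their fitted change, and black bars are list medians. Neutrophil secondary granule genes (median 3.76) head the figure and plasmacytoid dendritic cell genes (-4.88) close it, while S phase and G2/M genes form tight clusters near 1.

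Among the largest rises of genes above background in both groups, and outside the lists, were Pde2a, a phosphodiesterase that breaks down cyclic nucleotides (7.49, SE 0.14), Bfsp2, a filament protein known from the eye lens (6.57, SE 0.14), and the guidance ligand gene Slit1 (6.20, SE 0.20). Rtp4, a chaperone induced by interferon and a member of the interferon response list, rose by 6.11 (SE 0.25). Pde2a lay at 0.14 and 0.48 against 7.81 and 7.80. Bounds were high for the smoothelin-like gene Smtnl2 (at least 218-fold), the cilium gene Rsph1 (213-fold), the sodium channel subunit gene Scn4b (212-fold) and Art4 (131-fold). Other probes changed by 2.36 for Rsph1 and 3.94 for Art4. The largest falls besides those above were Upb1, an enzyme of pyrimidine breakdown (-7.55, SE 0.46), Cd7 (-7.46, SE 0.40), Sh3bgr (-7.14, SE 0.27), Ppfia4 (-7.08, SE 0.33), the paired immunoglobulin-like receptor gene Lilrb3, now Pirb (-7.03, SE 0.22), the protease gene Ctsh (-7.01, SE 0.34), the kinase gene Fgr (-7.00, SE 0.44), Lilra6 (-6.97, SE 0.15) and Mpeg1, a pore-forming protein of macrophages (-6.94, SE 0.50). The second probe of Ppfia4 changed by 0.06. Lower bounds were given by the phosphatase gene Ptprf (at least 203-fold lower), Pira11 (149-fold), the cadherin gene Cdh5 (130-fold), Rtn4rl1 (113-fold), Ak8 (106-fold), the collagen receptor gene Ddr1 (94.7-fold) and Mycl1, now Mycl (83.4-fold). The Lilr and Pir receptors are close copies whose probes may share signal.

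The other 4 groups lie on other slides, and their levels place the 2 groups without a test. Mean levels of Ebf1 were -6.62 in GMP, -6.17 in hCD4- pre-pro-B, 3.59 in hCD4+ pro-B and 4.20 in pre-B cells, beside -5.99 and 4.15 in the groups compared. Itgax, by contrast, stood at 5.11 in hCD4- pre-pro-B cells, as in the hCD4+ ones (5.28), at 1.20 in hCD4+ pro-B cells and at -3.41 in the hCD4- pro-B cells. Cox6a2 was likewise near the same level in both pre-pro-B groups (8.02 in hCD4-, 7.69 in hCD4+). Mpo was highest in GMP (8.65) and hCD4+ pro-B cells (6.67), lower in hCD4+ pre-pro-B cells (3.99) and lowest in the hCD4- ones (-1.26 in pre-pro-B, -1.90 in pro-B) and near these in pre-B cells (-1.30). The hCD4- pre-pro-B arrays of Mpo disagreed, at 0.57 and -3.09. Igh-VJ558 was high in the hCD4- groups of both stages, with 6.05 in pre-pro-B and 6.22 in pro-B cells, and stood at -3.85 in hCD4+ pre-pro-B cells. In hCD4+ pro-B cells its arrays disagreed, at 0.74 and -5.18, with 1 of them above background. It was also low in pre-B cells (-3.92) and GMP (-6.55). The mean of S100a9 was 3.64 in hCD4- pro-B cells and between -4.12 and -1.38 in all other groups. Some of these means join arrays that disagreed: 0.39 and -3.16 in hCD4- pre-pro-B, -0.97 and -4.81 in hCD4+ pro-B cells, -0.33 and -2.62 in GMP.

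**Figure D5:**
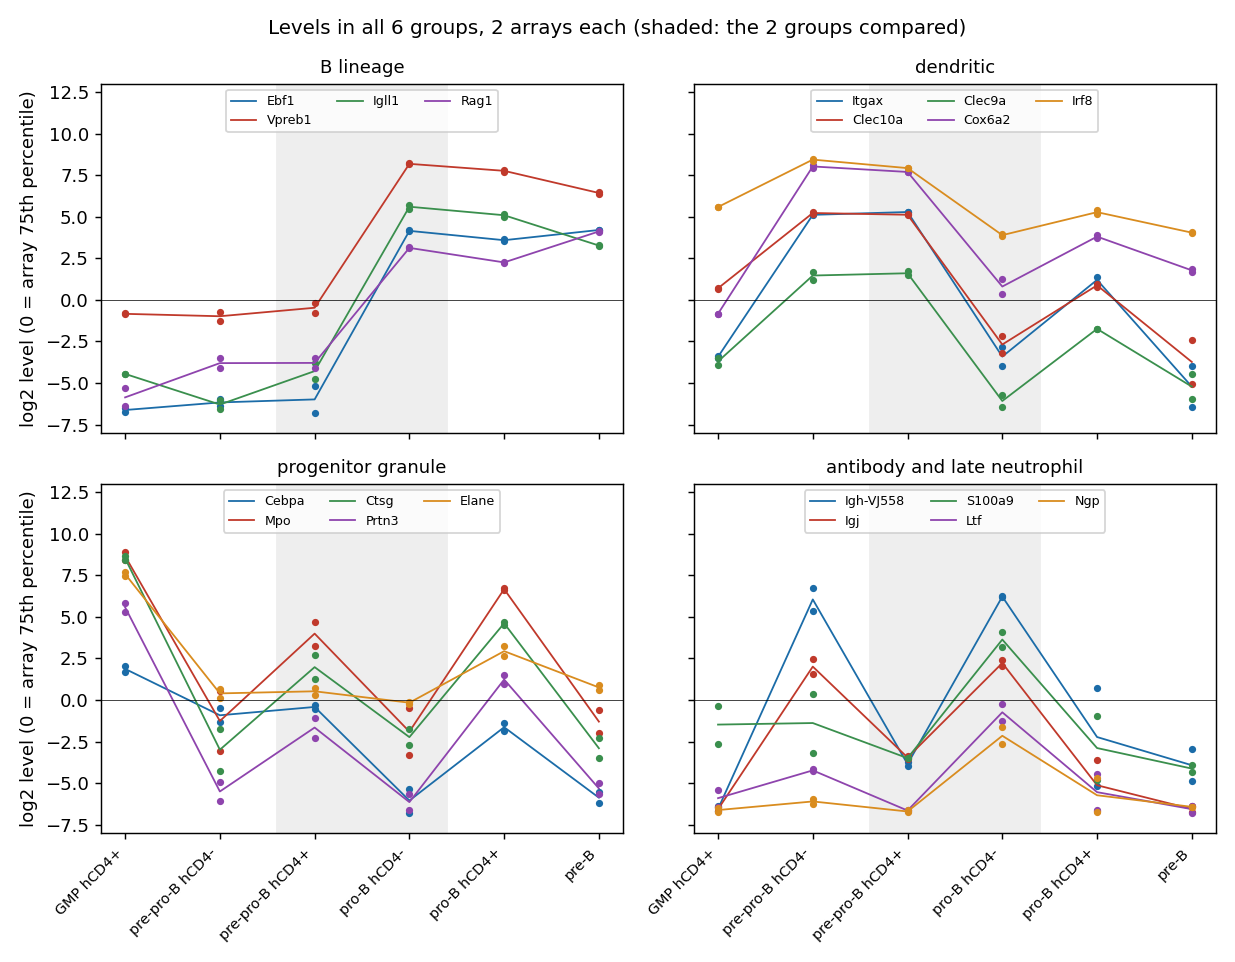
Log2 level of 19 genes in all 6 groups, with 0 at the array's 75th percentile; points are the 2 arrays of each group, lines join group means to guide the eye and grey marks the groups compared. B lineage genes are high in both pro-B groups and in pre-B cells, dendritic genes in both pre-pro-B groups, Mpo and Ctsg in GMP and the hCD4+ groups, and Igh-VJ558 and Igj in the hCD4- groups, with the hCD4+ pro-B arrays of Igh-VJ558 far apart.

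Replicates varied in step for some groups of genes. Of the 319 genes that rose by at least 4, 242 were brighter on replicate 2 than on replicate 1 of the hCD4+ pre-pro-B cells, among them Ebf1, Igll1 and Vpreb3, against 10172 of all 18556 genes. Part of this rests on readings below background, since Ebf1 was above it on neither of these arrays and Igll1 on 1. The detection floor was also higher on replicate 2 (-4.54) than on replicate 1 (-4.78). In the hCD4- pro-B cells 23 of 25 plasmacytoid dendritic cell genes were brighter on replicate 1, by a median of 0.36, and 11 of 12 late neutrophil genes, by 0.85, against 48.4% of all genes. Of the G2/M phase genes, 26 of 29 were brighter on replicate 1 in pre-pro-B and 25 in pro-B cells. These differences are small beside the changes between the groups for dendritic and B lineage genes, and their cause was not tested.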

How the data were processed

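Intensity per spot (background-subtracted and detrended) came from the deposited scanner files, made with Agilent Feature Extraction 10.7.3.1 on mm9 annotation, per the file headers. A deposited log2 table of the authors, with normalization and centring not given in the sources used here, served as an alternative. Here, log2 intensity minus each array's 75th percentile was used. Outlier spots were dropped, so 10 genes lacked an array. Probes were kept where well above background on both arrays of any of the 6 groups, and the brightest kept probe stood for a gene. All 12 arrays were fitted with limma 3.58.1 (R 4.3.3), with Benjamini-Hochberg adjustment over 18556 genes, and the code was tested on simulated data. Alternatives changed normalization, filter, probes, samples, weights, prior and test. Of the genes, 12985 matched RefSeq by accession. Named were 21 set genes, the 12 largest changes above background each way, the 8 largest bounds each way, and up to 6 leading and 3 other members of each list; further members were named after their values were seen. Members and lists were chosen with earlier results of these data known. Some genes under these rules are not reported here.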

Additional observations from a re-analysis of the deposited data

How the results depend on the processing

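Tested against a log2 change of 1 instead of 0, 2438 genes changed, 1190 of them higher and 1248 lower, and 18 of the genes named above lost their call. With 1 array left out, 6855 to 7198 genes changed, 3974 to 4259 of them higher and 2812 to 2939 lower. Under every other setting the counts stayed within 1.5 times, from 7834 without a filter to 10260 with array weights, and the deposited log2 table of the authors gave 8473. Among the genes named above, none changed direction under any of these settings, and outside the stricter test only Bcl11a lost its call. Calls were gained by Siglech under 11 settings, Ikzf1 under 8, Elane under 6 and Cplx2 under 3. Array-median scaling put 51.7% and cyclic loess 49.2% of the changed genes higher, against 60.2%. The replicate numbers were not shown to pair the samples, since same-numbered arrays of the 2 groups correlated at 0.243 in their deviations and the 15 pairs of groups ran from -0.007 to 0.255. With the replicate block 9165 genes changed, 5523 higher and 3642 lower. Depth here is signal over background: 774 genes were above background in neither group, and low levels near background are bounds rather than values.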
